A study of Mus musculus with 6 samples.

Results

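The serpins are a family of proteins that mostly act as irreversible inhibitors of serine proteases. They were chosen by name: a member is a protein-coding gene whose GENCODE M21 symbol is Serpin followed by a clade letter from a to i and a number. The rule gave 61 genes out of the 55573 in the count table. Clade B had 26 members, clade A 24, clade E 3, clades F and I 2 each, and clades C, D, G and H 1 each. Another 7 genes with a Serpin name were annotated as pseudogenes and were left out. On the GRCm38 genome, chromosome 12 held 23 members between 103614786 and 104414329, chromosome 13 held 15 between 32842092 and 34002794, and chromosome 1 held 13.

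An inhibitory serpin offers a protease a reactive loop as bait. When the loop is cut, the serpin snaps into another shape and traps the protease in a covalent complex, which receptors such as Lrp1 then clear. In the lung, serpins are best known through alpha-1-antitrypsin (SERPINA1 in humans), which restrains neutrophil elastase and whose deficiency leads to emphysema, above all in smokers. A few members have lost inhibition and work as chaperones, hormone carriers or signalling proteins.

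Both groups were wild-type C57BL/6 mice, 9 to 10 weeks old, and whole-lung RNA was measured. The SS-31H_CS group (3 libraries) was exposed to cigarette smoke and given SS-31, a mitochondria-targeted peptide, at 5 mg/kg once daily. The CS group (3 libraries) was exposed to cigarette smoke alone, for 75 min at a time, 2 times daily and 5 days per week, over 4 weeks. This schedule is stated for the CS group only. No smoke-free lungs are among these libraries, so the values compare smoke with SS-31 against smoke without it. Whether the libraries of a group stand for separate mice is not stated, so p-values measure only the spread between these libraries, which may be technical.

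Total counts were 15611925 to 16942014 in SS-31H_CS libraries and 17056917 to 17360052 in CS libraries. The surfactant gene Sftpc, which marks alveolar type II cells, had 11541 to 16103 CPM in SS-31H_CS and 12586 to 14242 CPM in CS libraries. CS replicate 3 stood apart, at 61.3 on a first principal component that held 46.4% of the variance, against -44.8 to -12.5 for the SS-31H_CS libraries and 7.19 and 14.4 for the other CS libraries. Values without it are given where it moved a result most. CPM are library-size-scaled counts (TMM scaling) and serve to compare one gene across libraries. FPKM, which also divide by gene length, serve to compare levels between genes. Every log2 fold change has SS-31H_CS on top and CS below, and a gene "changed" when edgeR's quasi-likelihood test gave it an adjusted p under 0.05. In whole lung, fewer cells of a type and less RNA per cell cannot be told apart.

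No serpin changed. Of the 61 members, 23 had enough counts to be tested, and the lowest adjusted p among them was 0.0889. Over all 16965 genes tested, 26 changed, which is 0.153%, with 0.0707% higher and 0.0825% lower. At an unadjusted p under 0.05 there were 9 of the 23 serpins, or 39.1%, beside 18.2% of all genes. Lower in SS-31H_CS lungs were 7 of them, among them Serpina3c, Serpina3m, Serpina3n, Serpinb6b, Serpinb9 and Serpinb9b, or 30.4% of the tested serpins beside 8.23% of all genes. Higher were Serpine2 and Serpinf1, or 8.7% beside 9.93% of all genes. The median log2 fold change of the 23 was -0.33, against 0.01 over all genes tested, and 17 of the 23 lay below 0, or 73.9% beside 48.6% of all genes. Of these 17, Serpina3i had enough counts to be tested through the CS libraries alone, and Serpina7 and Serpinb1b through the SS-31H_CS libraries alone. In 7 of the 23 tested serpins every SS-31H_CS library lay below every CS library, or 30.4% beside 12.4% of all genes tested. They were the same 7 that were lower at an unadjusted p under 0.05. Members of one gene cluster lie side by side and share sequence, so these counts are not counts of independent genes. Without CS replicate 3, the numbers at an unadjusted p under 0.05 were 6 lower (6.14% of all genes) and 1 higher. The share of all genes in the higher direction was not taken without that library.

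The answer for single serpins depended on the test. DESeq2 called Serpina3c, Serpina3m, Serpinb9 and Serpinb9b lower and none higher. It called 5.94% of all genes, 2.56% lower and 3.38% higher. edgeR with no filter on low counts called these and also Serpina3n and Serpina3k lower and none higher. It called 2.2% of all genes, 0.874% lower and 1.33% higher. Counts with known changes were simulated from edgeR's own estimates of the spread, with no library standing apart. On these, a mean of 23.5% of DESeq2's calls were false, against 7.32% for edgeR with its filter. There edgeR found 10.9% of 1.5-fold and 50.7% of 2-fold changes, and DESeq2 24.9% and 68.2%. The simulated setting differs from the real libraries, so it cannot rank the tests on them.

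**Figure D1:**
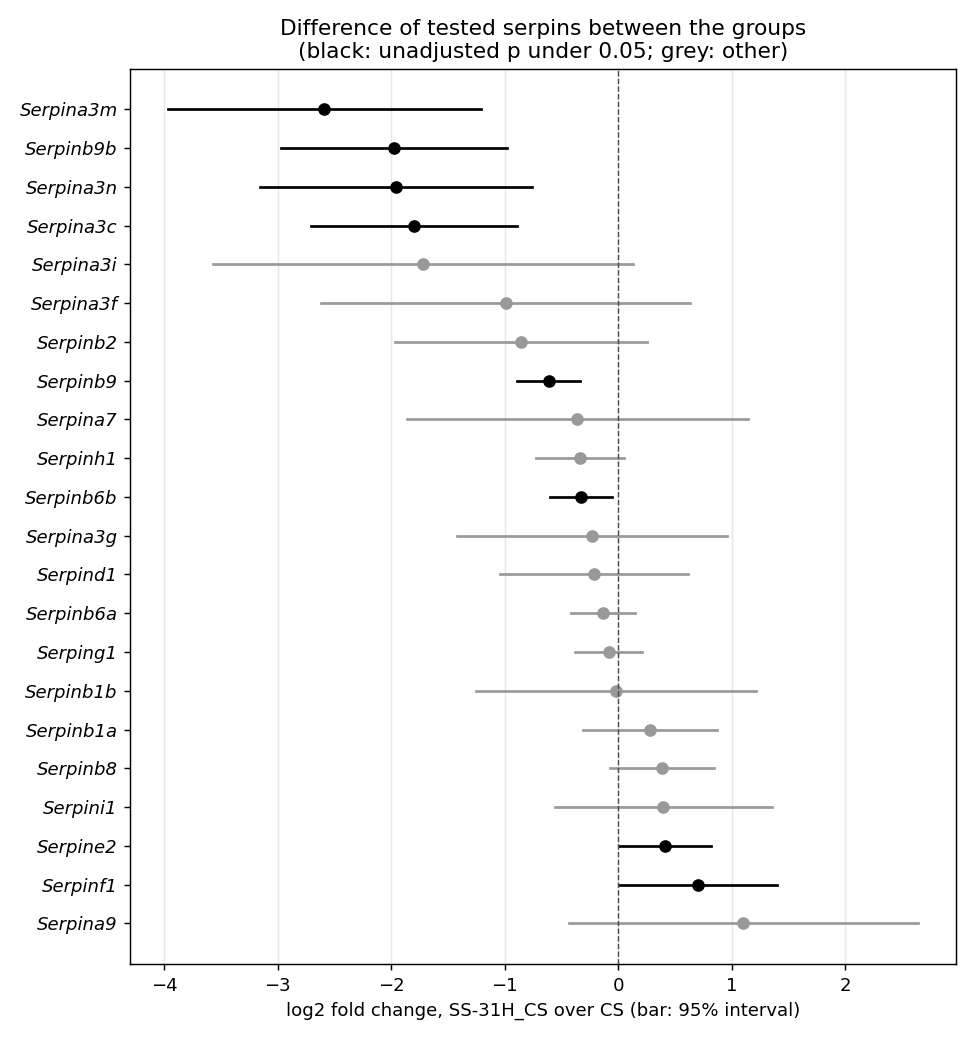
Log2 fold change of the tested serpins, SS-31H_CS over CS, with the 95% interval from edgeR. The named serpins lower at an unadjusted p under 0.05 lie left of 0, from -2.59 for Serpina3m to -0.33 for Serpinb6b, and Serpine2 (0.41) and Serpinf1 (0.70) lie to the right.

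Lung serpin RNA was dominated by a few genes. Serping1, Serpinh1 and Serpina3n together held 70.3% to 73.6% of the summed serpin FPKM in SS-31H_CS libraries and 71.4% to 77.0% in CS libraries. The summed serpin FPKM was 620.5, 691.3 and 621.3 in SS-31H_CS replicates 1, 2 and 3, against 775.3, 692.7 and 1266.9 in CS replicates 1, 2 and 3. The highest SS-31H_CS library thus lay just under the lowest CS library, and CS replicate 3 lay far above all others.

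**Figure D2:**
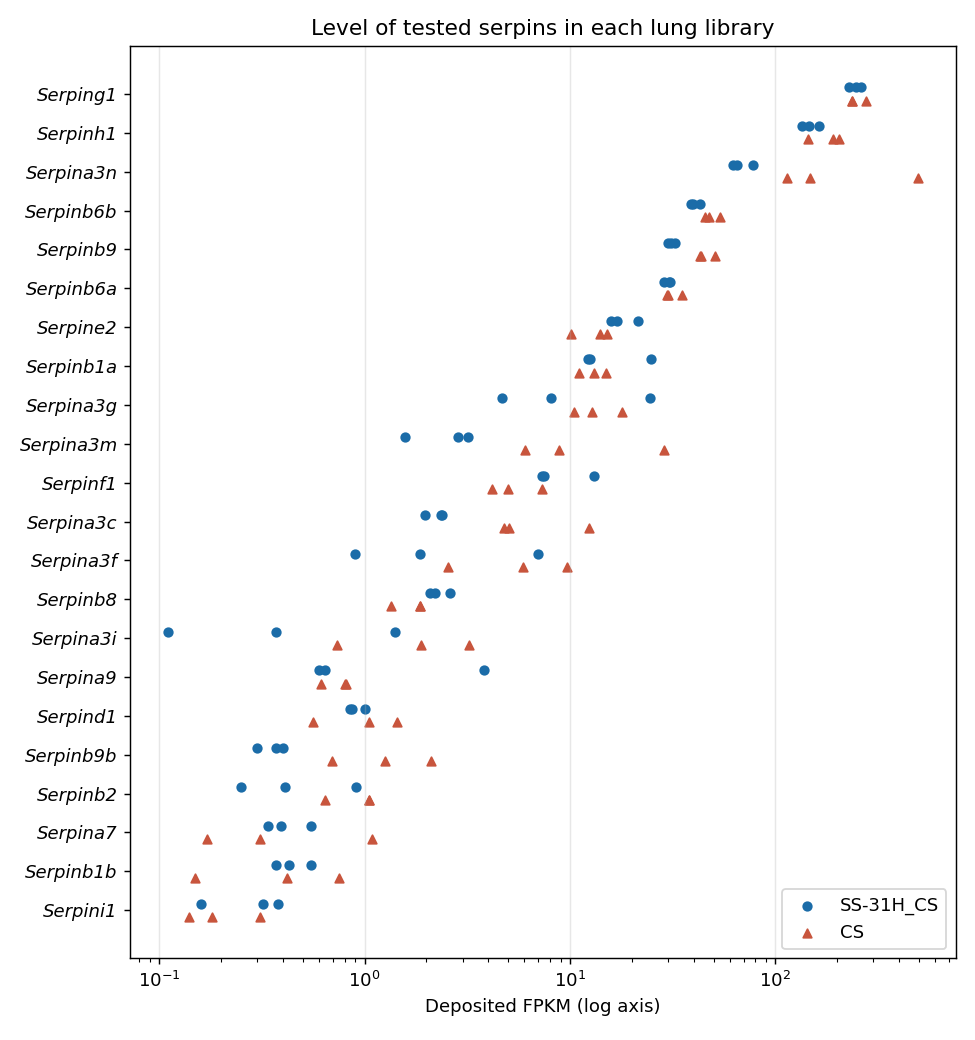
FPKM of the tested serpins in each library on a log axis, with SS-31H_CS above CS for each gene. Levels run from a mean of 248 FPKM for Serping1 to 0.248 FPKM for Serpini1.

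Serping1 had the highest level of the family. It encodes the C1 inhibitor, which blocks the complement proteases C1r and C1s, plasma kallikrein and coagulation factor XII. Its level was 530.5, 582.6 and 574.0 CPM in SS-31H_CS libraries, against 559.8, 547.6 and 680.0 CPM in CS libraries. The groups overlapped, and the log2 fold change was -0.08 (SE 0.13, 95% interval -0.38 to 0.21, edgeR adjusted p = 0.759), turning to 0.02 without CS replicate 3. Among 6 early complement proteases, 3 were tested, and none had an unadjusted p under 0.05.

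Serpinh1, also called HSP47, does not inhibit proteases. It is a chaperone of the endoplasmic reticulum that holds newly made procollagen in its folded triple helix. It had 397.6, 338.1 and 329.3 CPM in SS-31H_CS libraries, against 473.5, 349.4 and 523.1 CPM in CS libraries. The SS-31H_CS replicate 1 value lay above the lowest CS value, so the groups overlapped (log2 fold change -0.34, SE 0.17, 95% interval -0.73 to 0.05, edgeR adjusted p = 0.334). Of the 12 tested genes for procollagen folding and modification, 1 was lower at an unadjusted p under 0.05 (8.23% of all genes in that direction). This was the lysyl hydroxylase Plod1 (log2 fold change -0.35, edgeR adjusted p = 0.208). The median of the 12 was -0.22, and -0.06 without CS replicate 3. Col1a1, which encodes the main chain of type I collagen, had 141.6 to 199.8 CPM in SS-31H_CS and 178.9 to 209.1 CPM in CS libraries. It belongs to a list of 8 fibroblast and smooth muscle markers. Of these, 4 had log2 fold changes below 0 and 4 above, with a median of 0.07.

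The Serpina3 genes are the mouse counterparts of the single human gene for alpha-1-antichymotrypsin, an acute phase inhibitor of neutrophil cathepsin G and mast cell chymase. Mice have a cluster of them on chromosome 12, expanded by gene duplication, and 10 are members here. None had counts of 0 in every library, and 6 were tested. All 6 had log2 fold changes below 0, with a median of -1.76, beside 48.6% of all genes below 0. Among them, Serpina3i (log2 fold change -1.72) passed the low-count filter through CS alone, the group where it was higher. Its sign thus adds no support to the count. Without CS replicate 3, 5 of the 6 lay below 0 and the median was -1.05. At an unadjusted p under 0.05 were 3 of them, Serpina3n, Serpina3m and Serpina3c (8.23% of all genes in that direction). Of the 6 tested, 3 had every SS-31H_CS library below every CS library (12.4% of all genes in that direction), and they were the same 3.

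The upstream sequence of the tested Serpina3 genes is shown because these neighbours had log2 fold changes below 0 over all 6 libraries and some of their starts are near copies of each other. Each line holds the 250 bases before the RefSeq start, 5′ to 3′ on the gene's strand, from the RefSeq promoter table of GRCm38.p6. Windows were present for 5 of the 6 tested genes, and Serpina3m is named only. Capitals mark matches, on either strand, to the letters of 5 motifs. The glucocorticoid receptor half-site was searched as AGAACA. The STAT site was searched as TTCNNNGAA. For the NF-kB site the letters were GGGA and then CC after 4 free bases. The AP-1 site was searched as TGANTCA. The TATA box was searched as TATAAA. No match overlapped another in the printed windows.
Serpina3n (chr12:104406458-104406707, plus strand): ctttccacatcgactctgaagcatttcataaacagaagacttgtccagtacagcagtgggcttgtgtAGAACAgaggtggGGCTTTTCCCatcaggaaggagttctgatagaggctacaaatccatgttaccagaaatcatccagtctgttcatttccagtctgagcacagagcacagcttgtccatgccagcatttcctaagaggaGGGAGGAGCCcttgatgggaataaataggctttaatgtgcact
Serpina3c (chr12:104153873-104154122, minus strand): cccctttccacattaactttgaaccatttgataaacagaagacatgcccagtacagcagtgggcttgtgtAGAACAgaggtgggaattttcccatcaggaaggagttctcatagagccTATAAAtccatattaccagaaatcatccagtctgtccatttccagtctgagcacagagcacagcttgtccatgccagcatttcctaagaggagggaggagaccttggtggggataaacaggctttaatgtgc
Serpina3i (chr12:104262872-104263121, plus strand): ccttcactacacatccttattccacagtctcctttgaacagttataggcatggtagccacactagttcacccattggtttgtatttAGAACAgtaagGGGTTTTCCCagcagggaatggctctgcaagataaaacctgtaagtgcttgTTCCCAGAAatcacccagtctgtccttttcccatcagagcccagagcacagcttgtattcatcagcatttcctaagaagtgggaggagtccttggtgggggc
Serpina3f (chr12:104214294-104214543, plus strand): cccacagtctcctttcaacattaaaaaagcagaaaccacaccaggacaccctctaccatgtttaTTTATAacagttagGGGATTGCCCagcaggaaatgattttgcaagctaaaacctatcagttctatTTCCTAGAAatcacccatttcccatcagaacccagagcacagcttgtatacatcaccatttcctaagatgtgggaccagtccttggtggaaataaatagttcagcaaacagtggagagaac
Serpina3g (chr12:104235897-104236146, plus strand): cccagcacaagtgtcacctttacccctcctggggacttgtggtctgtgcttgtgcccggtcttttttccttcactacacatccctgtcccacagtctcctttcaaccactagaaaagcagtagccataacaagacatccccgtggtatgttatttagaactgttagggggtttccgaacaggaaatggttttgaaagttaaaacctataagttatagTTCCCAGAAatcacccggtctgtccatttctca

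Counted back from the start, the windows of Serpina3n and Serpina3c held the glucocorticoid receptor half-site at nearly the same place, -183 to -178 in Serpina3n and -180 to -175 in Serpina3c. Over the 247 bases that could be aligned, these 2 windows were 92.7% identical. Serpina3i held the half-site at -164 to -159, and the printed windows of Serpina3f and Serpina3g held none. Serpina3f has another RefSeq start further downstream, with the half-site at -94 to -89 before it. The NF-kB letters occurred at -170 to -161 and at -43 to -34 in Serpina3n, and 1 time each in Serpina3i and Serpina3f. The STAT letters lay in Serpina3i, Serpina3f and Serpina3g and not in the other pair. The TATA box letters lay in Serpina3c at -132 to -127 and in Serpina3f at -186 to -181, and the AP-1 letters in none of the 5. Of 32851 mouse windows of the same length, 16.1% held the glucocorticoid receptor half-site, 7.02% the STAT site, 17.6% the NF-kB site, 6.75% the AP-1 site and 12.4% the TATA box. These are matches of letters and say nothing of binding.

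Serpina3n (ENSMUSG00000021091, chromosome 12, 104406729 to 104414329) had the highest level of the cluster, and its protein inhibits leukocyte elastase and granzyme B in mice. It had 134.2, 154.1 and 128.3 CPM in SS-31H_CS libraries, against 309.0, 234.6 and 1076 CPM in CS libraries. Every SS-31H_CS value lay below every CS value, and CS replicate 3 was 3.96 times the mean of the other CS libraries. SS-31H_CS over CS gave a log2 fold change of -1.96 (SE 0.52, 95% interval -3.16 to -0.76, edgeR adjusted p = 0.137) and -0.97 without CS replicate 3.

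Serpina3m lies just before Serpina3n, at 104338486 to 104394257. Its RNA measured 4.91, 5.26 and 2.71 CPM in SS-31H_CS libraries, against 15.4, 10.4 and 51.8 CPM in CS libraries. The groups did not overlap, and the log2 fold change was -2.59 (SE 0.60, 95% interval -3.97 to -1.21, edgeR adjusted p = 0.111), or -1.59 without CS replicate 3. DESeq2 gave an adjusted p of 0.0150. Of the 50-base stretches of its exons, 19.1% occur in other genes as well, so reads may be split between neighbours.

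Serpina3c (chromosome 12, 104146382 to 104153870, minus strand) had 5.20, 5.01 and 4.35 CPM in SS-31H_CS libraries, against 11.3, 10.5 and 29.0 CPM in CS libraries. The SS-31H_CS libraries were close together and all lay below the CS libraries. The log2 fold change was -1.80 (SE 0.39, 95% interval -2.71 to -0.89, edgeR adjusted p = 0.0996), and -1.17 without CS replicate 3. DESeq2 gave an adjusted p of 0.000359.

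Serpina3g, an intracellular member found in T cells and inhibiting cysteine cathepsins in mice, varied as much within the groups as between them. It had 16.96, 49.01 and 9.76 CPM in SS-31H_CS libraries, against 22.3, 26.8 and 39.6 CPM in CS libraries. SS-31H_CS replicate 2 was the highest of all 6 and SS-31H_CS replicate 3 the lowest. The log2 fold change was -0.23 (SE 0.52, edgeR adjusted p = 0.839), and turned to 0.15 without SS-31H_CS replicate 3 and to 0.03 without CS replicate 3. Serpina3f had 2.06 to 15.2 CPM in SS-31H_CS and 5.96 to 23.3 CPM in CS libraries (log2 fold change -0.99, edgeR adjusted p = 0.485). Its log2 fold change was -2.17 without SS-31H_CS replicate 2, -0.45 without CS replicate 3 and -0.0040 without replicate 3 of both groups. The summed CPM of 10 interferon-stimulated genes, a list chosen after values were seen, was 703.8, 1182 and 474.4 in SS-31H_CS replicates 1, 2 and 3, against 683.4, 954.0 and 1238 in CS replicates 1, 2 and 3. Within each group its order over the libraries was that of Serpina3g. None of the 10 had an unadjusted p under 0.05, and their part in the Serpina3g values was not tested.

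**Figure D3:**
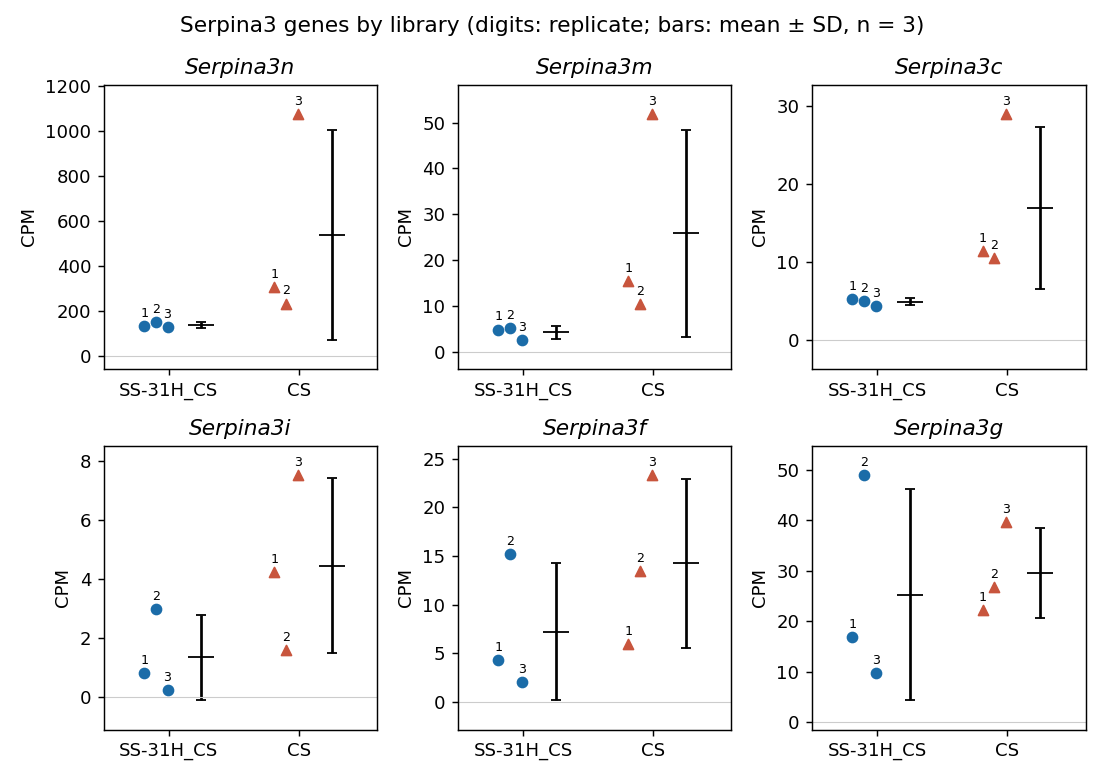
CPM of the 6 tested Serpina3 genes in each library on linear axes, SS-31H_CS left of CS, with replicate numbers and bars for the mean ± SD (n = 3). CS replicate 3 is the highest library in 5 of the 6 genes, and in Serpina3n, Serpina3m and Serpina3c every SS-31H_CS library lies below every CS library.

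Of the 4 untested members of the cluster, Serpina3k had no count in any SS-31H_CS library, against 5, 9 and 29 counts in CS replicates 1, 2 and 3. Set against the floor of 3 counts per library, its mean CPM was at least 4.85-fold lower in SS-31H_CS, and at least 2.27-fold lower without CS replicate 3. With no filter on low counts its adjusted p by edgeR was 0.0157. It shares 14.04% of its 50-base stretches with other genes and overlaps Serpina3m on the same strand, so some of its reads may belong to Serpina3m. Serpina3b had 1, 1 and 0 counts in SS-31H_CS libraries, against 6, 7 and 7 in CS libraries.

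Together the 10 Serpina3 genes made up 80.8, 116.6 and 71.6 summed FPKM in SS-31H_CS libraries, against 176.5, 145.1 and 567.9 in CS libraries. As a share of all serpin FPKM this was 11.5% to 16.9% in SS-31H_CS and 20.9% to 44.8% in CS libraries. The groups did not overlap in either measure, but Serpina3n made up most of the sum in every library. With Serpina3n taken out, the groups overlapped in both measures. SS-31H_CS replicate 2 then had 38.37 FPKM (5.55%), above CS replicates 1 and 2 at 29.06 and 30.81 FPKM (3.75% and 4.45%). It lay below CS replicate 3, at 72.84 FPKM (5.75%), and SS-31H_CS replicates 1 and 3 lay below every CS library.

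Genes known to respond to glucocorticoids, which also induce Serpina3n, had values on the same side. Of 10 such genes, all tested, 7 were lower at an unadjusted p under 0.05 (8.23% of all genes in that direction), none was higher, and none changed. Their median log2 fold change was -1.03, and -0.67 without CS replicate 3. Their summed CPM was 1031 to 1112 in SS-31H_CS and 1540 to 2794 in CS libraries. The lowest p belonged to the kinase Sgk1, at 111.7, 135.6 and 105.6 CPM in SS-31H_CS libraries, against 200.5, 211.4 and 269.1 CPM in CS libraries (log2 fold change -0.95, edgeR adjusted p = 0.0728). Fkbp5, a co-chaperone of the glucocorticoid receptor, had 39.1, 38.9 and 31.3 CPM in SS-31H_CS libraries, against 80.7, 113.9 and 344.5 CPM in CS libraries. Like Serpina3n, it was by far the highest in CS replicate 3, and its log2 fold change of -2.30 was -1.42 without that library. The part of this pattern in the Serpina3 values was not tested.

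Acute phase genes outside the family were mixed. Of 8 tested, 1 was lower at an unadjusted p under 0.05 (8.23% of all genes in that direction). This was Saa1 (log2 fold change -2.79, edgeR adjusted p = 0.262, and -1.32 without CS replicate 3), at most 4.88 CPM in any library. The median of the 8 was -0.16, and turned to 0.15 without CS replicate 3. Of 8 hepatocyte markers, 5 were too low to test. The other 3 had a median log2 fold change of 0.38. Of these 3, 1 was higher at an unadjusted p under 0.05 (9.93% of all genes in that direction), transferrin (Trf). It had 101.6, 113.8 and 125.6 CPM in SS-31H_CS libraries, against 97.9, 87.9 and 76.0 CPM in CS libraries. Albumin (Alb), which defines hepatocytes, was at most 1.48 CPM in any library. The summed CPM of 8 neutrophil markers ran from 506.8 to 3649 in SS-31H_CS and from 2567 to 3723 in CS libraries, so the groups overlapped. All 8 neutrophil markers had log2 fold changes below 0 (median -0.81, and -0.74 without CS replicate 3). Of the 8, 1 was lower at an unadjusted p under 0.05 (8.23% of all genes in that direction). The part of these markers in the Serpina3 values was not tested.

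Serpine2 (chromosome 1, 79794197 to 79861180, minus strand) encodes protease nexin-1, which stays at the cell surface and inhibits thrombin and plasminogen activators. It had 130.6, 133.3 and 177.6 CPM in SS-31H_CS libraries, against 127.2, 115.8 and 88.1 CPM in CS libraries. The groups did not overlap, though the nearest libraries were at 130.6 and 127.2 CPM. The log2 fold change was 0.41 (SE 0.18, 95% interval 0.01 to 0.82, edgeR adjusted p = 0.265), with 0.25 without SS-31H_CS replicate 3 and 0.27 without CS replicate 3. In mean FPKM, Serpine2 was at 18.1 ± 3.04 in SS-31H_CS and 13.1 ± 2.64 in CS lungs (SD, n = 3 each).

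Genes of the plasminogen system were mostly on the lower side. Of 9 tested genes of plasminogen activation and serpin clearance, 5 were lower at an unadjusted p under 0.05 (8.23% of all genes), none was higher, and none changed, with a median log2 fold change of -0.50, or -0.24 without CS replicate 3. Lrp1, the receptor that takes up serpin complexes, had 895.7, 763.6 and 621.5 CPM in SS-31H_CS libraries, against 1042, 1014 and 1168 CPM in CS libraries (log2 fold change -0.50, edgeR adjusted p = 0.177). S100a10, a cell surface plasminogen receptor subunit, had a log2 fold change of -0.50 (edgeR adjusted p = 0.230), or -0.24 without CS replicate 3. The urokinase receptor gene Plaur had -0.87 (edgeR adjusted p = 0.230), or -0.36 without CS replicate 3.

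Of 13 tested coagulation genes, 2 were lower (8.23% of all genes) and 1 was higher (9.93% of all genes) at an unadjusted p under 0.05, and none changed. The thrombin receptor gene F2r had 292.1, 272.9 and 253.2 CPM in SS-31H_CS libraries, against 385.7, 402.0 and 472.7 CPM in CS libraries (log2 fold change -0.62, edgeR adjusted p = 0.0904). The related protease receptor gene F2rl1 had a log2 fold change of -0.76 (edgeR adjusted p = 0.180), or -0.41 without CS replicate 3. Factor XI (F11) was higher at about 1 CPM (log2 fold change 2.34, edgeR adjusted p = 0.0808). The summed CPM of 8 endothelial markers was 3457 to 4512 in SS-31H_CS and 4817 to 5734 in CS libraries. Of these markers 4 were lower at an unadjusted p under 0.05, and their part in the values of the coagulation and plasminogen genes was not tested.

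**Figure D4:**
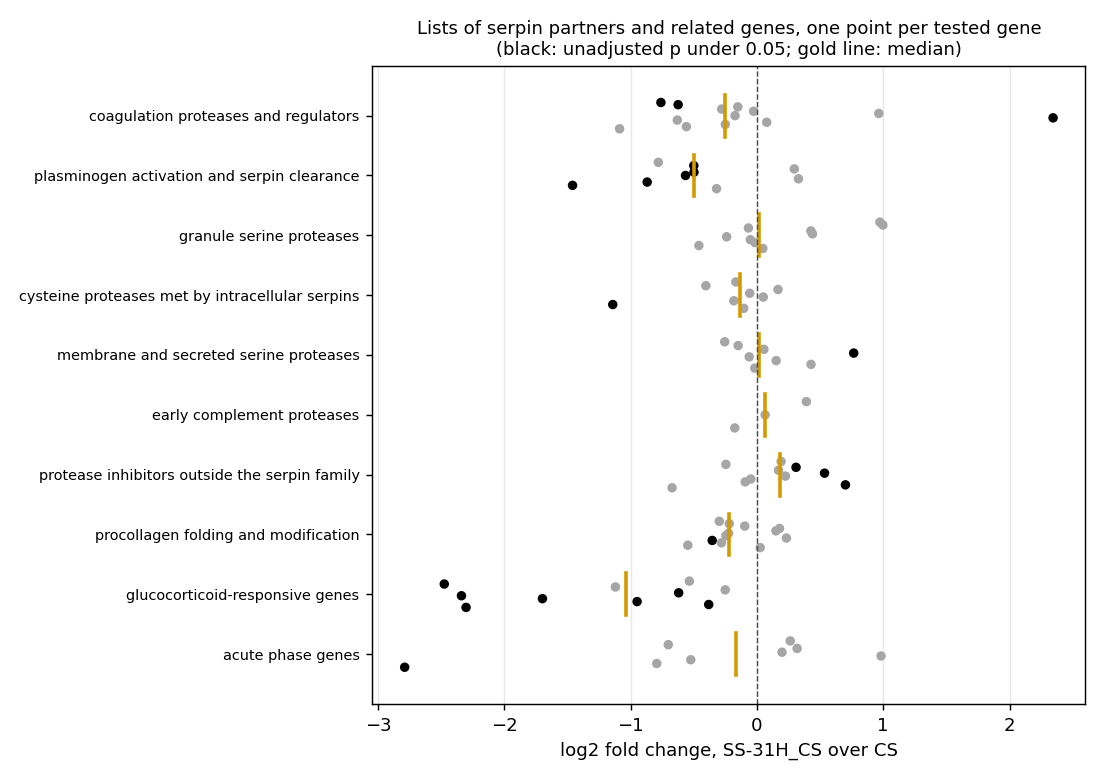
Log2 fold changes, SS-31H_CS over CS, of the tested genes in each list of proteases, inhibitors and related genes, with the median of each list marked. The glucocorticoid-responsive list (median -1.03) and the plasminogen list (median -0.50) lie furthest left, and the granule protease list has a median of 0.02, which is -0.40 without CS replicate 3.

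Clade B serpins mostly stay inside cells, where many guard against proteases that leak from granules and lysosomes. Serpinb9 (ENSMUSG00000045827, chromosome 13, 33003250 to 33017957) inhibits granzyme B and protects leukocytes and their targets from killing by cytotoxic cells. It had the lowest p of any serpin. It had 104.7, 103.2 and 113.1 CPM in SS-31H_CS libraries, against 152.1, 151.2 and 187.2 CPM in CS libraries. The groups did not overlap, and CS replicate 3 was 1.23 times the mean of the other CS libraries. Its log2 fold change was -0.61 (SE 0.12, 95% interval -0.89 to -0.33, edgeR adjusted p = 0.0889), or 0.654-fold. Leaving out any one library kept it between -0.67 and -0.51, and DESeq2 gave an adjusted p of 0.00117.

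Serpinb9b, its neighbour at 33027416 to 33041884, was scarce. It had 1.01, 1.28 and 1.24 CPM in SS-31H_CS libraries, against 2.36, 4.18 and 7.41 CPM in CS libraries. The groups did not overlap, and the log2 fold change was -1.98 (SE 0.43, 95% interval -2.97 to -0.98, edgeR adjusted p = 0.0996), or -1.48 without CS replicate 3. DESeq2 gave an adjusted p of 0.00198. Only 0.378% of the 50-base stretches of Serpinb9 and 5.38% of those of Serpinb9b occur in other genes, so the pair can mostly be told apart. The other 5 Serpinb9 genes had no counts.

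Serpinb6b (chromosome 13, 32965209 to 32979067) belongs to a group whose human relative inhibits cathepsin G. It had 87.2, 86.1 and 96.5 CPM in SS-31H_CS libraries, against 108.9, 102.4 and 127.7 CPM in CS libraries. The groups did not overlap, with a log2 fold change of -0.33 (SE 0.12, 95% interval -0.60 to -0.06, edgeR adjusted p = 0.214). Serpinb6a, a paralog on the same chromosome, had 164.3, 147.3 and 165.3 CPM in SS-31H_CS libraries, against 162.7, 161.7 and 199.1 CPM in CS libraries. Here the groups overlapped (log2 fold change -0.13, edgeR adjusted p = 0.588). Exons of genes on the other strand cover 29.3% of Serpinb6a, and the strand setting of the counting is not given in the sources used here.

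Serpinb1a inhibits neutrophil elastase, proteinase 3 and cathepsin G inside neutrophils. It had 28.1, 54.6 and 28.7 CPM in SS-31H_CS libraries, against 34.998, 29.9 and 26.9 CPM in CS libraries. SS-31H_CS replicate 2 alone was high, and the log2 fold change of 0.28 (SE 0.26, edgeR adjusted p = 0.590) turned to -0.11 without it. The neutrophil marker sum was 3649, 1403 and 506.8 CPM in SS-31H_CS replicates 1, 2 and 3. The part of these markers in the Serpinb1a values was not tested. Serpinb8, whose human counterpart inhibits furin, had 9.53 to 12.4 CPM in SS-31H_CS and 6.55 to 9.45 CPM in CS libraries. These groups did not overlap, as in 13.6% of all genes in that direction, and the log2 fold change was 0.39 (SE 0.20, edgeR adjusted p = 0.350).

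The proteases that these serpins meet had values on both sides. Of 10 tested granule serine proteases, none had an unadjusted p under 0.05, and the median log2 fold change was 0.02, or -0.40 without CS replicate 3. Gzmb, the target of Serpinb9, had 10.2, 24.9 and 11.7 CPM in SS-31H_CS libraries, against 19.6, 31.1 and 4.45 CPM in CS libraries. It was lowest in CS replicate 3, where Serpinb9 was highest. Of 8 cysteine proteases, 1 was lower at an unadjusted p under 0.05 (8.23% of all genes in that direction), the lysosomal cathepsin gene Ctsh. It had 350.8, 323.5 and 318.9 CPM in SS-31H_CS libraries, against 457.6, 431.0 and 1302 CPM in CS libraries. Its log2 fold change was -1.14 (edgeR adjusted p = 0.202), and -0.43 without CS replicate 3.

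Markers of leukocytes stood beside these values as follows. The summed CPM of 8 T and NK cell markers was 61.8 to 123.9 in SS-31H_CS and 27.9 to 93.4 in CS libraries. The sum of 8 alveolar macrophage markers was 727.9 to 1140 in SS-31H_CS and 1611 to 2016 in CS libraries. All 8 macrophage markers had log2 fold changes below 0 (median -0.46, and -0.60 without CS replicate 3), and 4 were lower at an unadjusted p under 0.05. Beside these 4, 8.23% of all genes were lower at that threshold. The groups did not overlap in the sum or in 4 of the 8 single markers, as in 12.4% of all genes in that direction, and the part of these markers in the Serpinb9, Serpinb9b and Serpinb6b values was not tested.

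Serpinf1 (chromosome 11, 75409769 to 75422701, minus strand) encodes PEDF, a non-inhibitory member that restrains the growth of new blood vessels. It had 17.3, 16.8 and 30.9 CPM in SS-31H_CS libraries, against 12.0, 9.74 and 18.2 CPM in CS libraries. The groups overlapped, because CS replicate 3 lay above the lower pair of SS-31H_CS libraries. Its log2 fold change was 0.70 (SE 0.30, 95% interval 0.01 to 1.40, edgeR adjusted p = 0.272), with 0.35 without SS-31H_CS replicate 3 and 0.99 without CS replicate 3. Markers of fibroblasts and smooth muscle, cells that make PEDF, had a median log2 fold change of 0.07, and 0.19 without CS replicate 3. At an unadjusted p under 0.05 by edgeR, 2 were higher (9.93% of all genes) and 1 was lower (8.23% of all genes). The part of these markers in the Serpinf1 values was not tested.

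Protease inhibitors from outside the family had 6 of 10 log2 fold changes above 0. Of these 10, 3 were higher at an unadjusted p under 0.05 (9.93% of all genes), none was lower, and none changed, with a median log2 fold change of 0.18. Spint2, a membrane-bound inhibitor of epithelial serine proteases, had 300.9, 340.8 and 373.1 CPM in SS-31H_CS libraries, against 236.2, 231.4 and 232.5 CPM in CS libraries (log2 fold change 0.54, edgeR adjusted p = 0.0996). Wfdc2, a secreted protein of the airway epithelium, had a log2 fold change of 0.70 (edgeR adjusted p = 0.111), and cystatin C (Cst3), an inhibitor of cysteine cathepsins, had 0.31 (edgeR adjusted p = 0.233). Of 8 tested membrane and secreted serine proteases, 1 was higher at an unadjusted p under 0.05, Hpn (log2 fold change 0.77, edgeR adjusted p = 0.0996). Markers of the airway epithelium were higher as well: all 8 ciliated cell markers and 6 of 8 club cell markers were higher at an unadjusted p under 0.05, beside 9.93% of all genes, and 1 club cell marker, Scgb3a2, changed. Their part in the Spint2 and Wfdc2 values was not tested.

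Most of the family was scarce or not detected in lung. Of the 38 untested members, 17 had no count in any library, which allows up to 0.172 to 0.185 CPM per library at 3 counts, and the others reached at most 4.03 CPM. The alpha-1-antitrypsin genes, made in mice mainly by the liver, are the clearest case. Of 6 Serpina1 genes, Serpina1c, Serpina1d and Serpina1f had no counts, Serpina1a and Serpina1e had 1 count each in CS replicate 1, and Serpina1b had 1, 16 and 0 counts in SS-31H_CS libraries, against 0, 1 and 0 in CS libraries. Apart from Serpina1f, these genes share 29.5% to 79.3% of their 50-base stretches with other genes, and reads that matched several copies may have been left uncounted. Antithrombin (Serpinc1) had 1 to 12 counts per library and alpha-2-antiplasmin (Serpinf2) 4 to 11. The 4 Serpinb3 genes had none. Another 7 tested members had a mean under 5 CPM and an unadjusted p of at least 0.05, with log2 fold changes between -1.72 and 1.10 and adjusted p-values by edgeR of at least 0.306. Some members passed the low-count filter through one group alone, Serpina3i through CS and Serpina7 and Serpinb1b through SS-31H_CS.

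Single libraries stood out in many members. CS replicate 3 was the highest library for 14 of the 23 tested serpins, or 60.9%, beside 27.5% of all genes tested. It was the lowest for 5, or 21.7%, beside 28.7% of all genes. All 7 serpins that were lower at an unadjusted p under 0.05 were highest in that library. Serpina3n and Serpina3m were 3.96 and 4.02 times the mean of the other CS libraries there. SS-31H_CS replicate 3 was the lowest library for 8 of the 23, beside 19.5% of all genes. SS-31H_CS replicate 2 was the highest for only 3 of the 23, beside 16.8% of all genes, but by a wide margin in some members. Serpina9, a germinal centre B cell gene named after its values were seen, had 2.19, 13.3 and 2.35 CPM in SS-31H_CS libraries, against 3.01, 2.92 and 2.35 CPM in CS libraries. Serpina10, which inhibits coagulation factor Xa, had 3, 66 and 7 counts in SS-31H_CS libraries, against 2, 3 and 3 in CS libraries. A list of B cell markers was also chosen after values were seen. Its sum was 270.4, 271.3 and 291.3 CPM in SS-31H_CS libraries, against 189.6, 255.9 and 46.8 CPM in CS libraries. The part of these markers in the Serpina9 values was not tested.

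**Figure D5:**
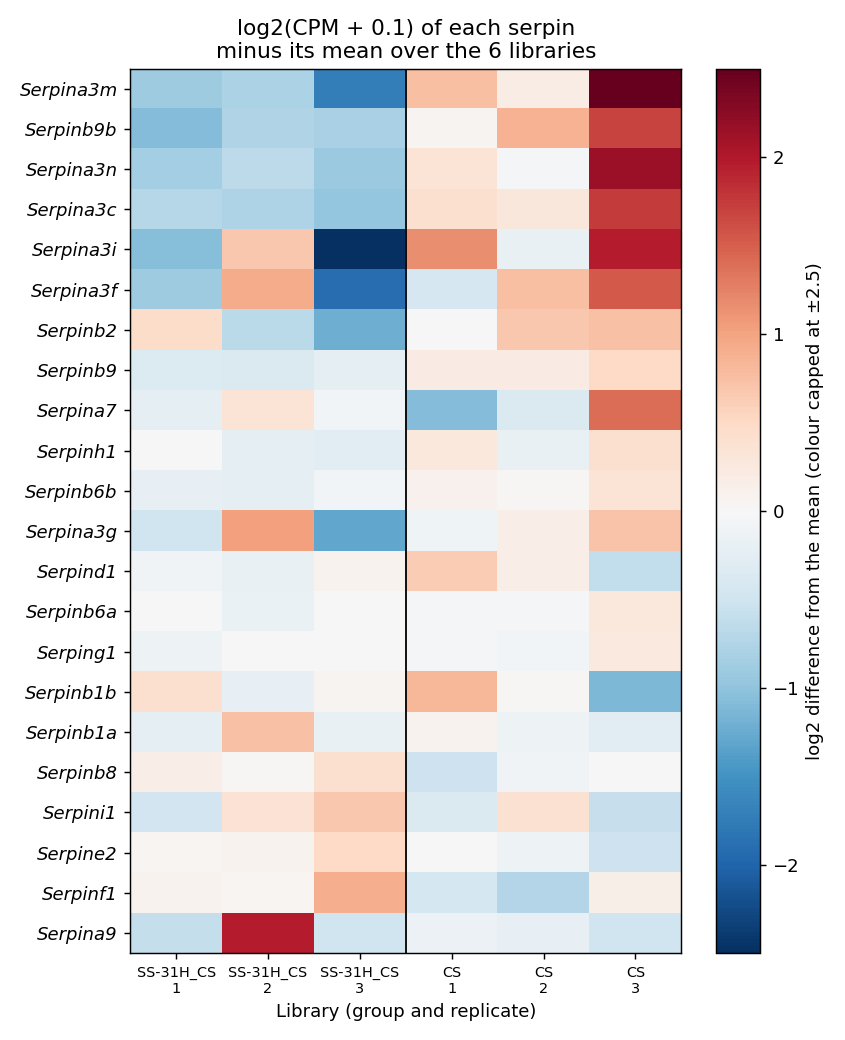
Level of the tested serpins in each library relative to each gene's mean over the 6 libraries (log2 scale), SS-31H_CS libraries left of CS libraries. CS replicate 3 is the highest library for Serpina3n, Serpina3m, Serpina3c and Serpinb9b, and SS-31H_CS replicate 2 holds the peaks of Serpina3g, Serpina9 and Serpinb1a.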

How the data were processed

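Lung RNA was sequenced in 6 libraries, 3 SS-31H_CS and 3 CS, grouped by their titles. Unnormalized counts per Ensembl gene and FPKM values were deposited by the authors. Per the submitters' processing notes, cutadapt 1.9.1, HISAT2 2.0.1, HTSeq 0.6.1 and GRCm38 were used; the annotation release, strand setting and filters are not given in the sources used here. The deposited FPKM are scaled by library total alone, to within 0.242% over the 3310 genes above 1000 counts throughout. Symbols and coordinates came from GENCODE M21 by Ensembl ID (55394 matched, 179 did not).

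Counts were compared by edgeR 4.0.16 (R 4.3.3), with TMM scaling, its low-count filter (minimum count 10, minimum total 15), the two-sided quasi-likelihood test and Benjamini-Hochberg adjustment over all genes tested. Alternatives were RLE size factors, library size alone, no filter, DESeq2 1.42.0, limma 3.58.1 (voom, and trend on log2 FPKM with pseudocounts of 1 and 0.1), a filter of 1 CPM reached by 3 libraries, a replicate block, and each library omitted. Omitting replicate 3 of both groups was added after seeing the data. The test script was checked on 3 sets of simulated counts with 200 changed genes each, using edgeR's estimates of the spread. Replicates differed beyond sampling noise, so none was a repeat deposit.

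The members, gene lists and naming rule were chosen with earlier results of these data known. Serpins with a mean of at least 5 CPM or an unadjusted p under 0.05 are named with values, apart from 1 item that is not reported here, and of each list up to 3 genes at an unadjusted p under 0.05. Intervals cover the spread between libraries, and the floor of 3 counts covers counting error only. Shared sequence was measured as 50-base stretches of a gene's exons that also occur in another gene's transcripts.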

Additional observations from a re-analysis of the deposited data

How the results depend on the processing

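With 3 libraries a group and CS replicate 3 standing apart, the intervals of single serpins were wide, and 38 members had too few counts at this depth to be tested. No serpin changed under RLE size factors, library size alone, the 1 CPM filter, limma voom, limma trend, the replicate block or any left-out library, against 4 with DESeq2 and 6 with no low-count filter. With no filter, 16 of 44 serpins tested were at an unadjusted p under 0.05, and 7 to 10 under the other alternatives. Those tested 20 to 24 serpins, apart from limma trend without a filter, which also tested 44. The causes of these differences between settings were not tested. Apart from the 6.14% lower without CS replicate 3, the share of all genes at that unadjusted threshold was not taken for the alternatives. These counts thus cannot set the serpins apart from other genes.

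Over all genes, the number changed was 12 with library size alone, 648 with no filter, 948 with DESeq2, 6 with voom, 6, 5 and 4 with limma trend on log2(FPKM + 1), log2(FPKM + 0.1) and log2(FPKM + 1) without a filter, and 1 to 15 with 1 library left out, the 15 being without CS replicate 3. Without replicate 3 of both groups it was 36. The median log2 fold change of the serpins was -0.037 on log2(FPKM + 1) without a filter, where more scarce members enter, -0.16 without replicate 3 of both groups, and -0.45 to -0.24 with 1 library left out.

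Same-numbered libraries showed little common deviation (correlations 0.0072, 0.036 and -0.057). With 3 libraries a group and CS replicate 3 standing apart, this cannot tell whether the numbers pair them. With the replicate number as a block, 0 genes changed, and the serpin median was -0.32. At an unadjusted p under 0.05 were 8 serpins, a count without a share of all genes beside it. The best match of SS-31H_CS replicates 1 and 3 was not the CS library of the same number, and that of replicate 2 was.

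Among the 23 tested serpins, 15 kept their sign under all 17 alternatives, including all 9 at an unadjusted p under 0.05. With libraries left out, the log2 fold change ran from -1.15 (without SS-31H_CS replicate 2) to 0.15 (without SS-31H_CS replicate 3) for Serpina3g, with 0.42 without replicate 3 of both groups. It ran from -0.79 to 0.80 for Serpina7, with CS replicate 1 or 3 left out, with 0.85 without replicate 3 of both groups. For Serpina9 it ran from -0.28 (without SS-31H_CS replicate 2) to 1.49 and for Serpinb1a from -0.11 (without SS-31H_CS replicate 2) to 0.44. For Serpinb1b it ran from -0.41 to 0.60, with CS replicate 3 or 1 left out, and for Serpind1 from -0.58 (without replicate 3 of both groups) to 0.11 (without CS replicate 1). For Serping1 it ran from -0.14 to 0.018 (without CS replicate 3), with 0.0053 without replicate 3 of both groups, and for Serpini1 from -0.069 (without replicate 3 of both groups) to 0.76. Voom turned Serpina7 (0.075) and Serpinb1b (0.20), and Serpinb1b also turned with library size alone (0.027), with unfiltered log2(FPKM + 1) (0.029) and with the block (0.10).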
